A study of Mus musculus with 10 samples.

Results

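The genes described here encode the machinery that degrades mRNA in the cytoplasm and nucleus of Neuro2a (N2A) mouse neuroblastoma cells. Members were taken by gene name: the Cnot subunits, the Exosc subunits, Dcp1a, Dcp1b, Dcp2, Edc3, Edc4, Xrn1, Xrn2, Pan2, Pan3, Parn, the Upf and Smg genes, the Zfp36 family, Pabpc1, Pabpc4 and Ddx6. Of 13698 genes in the table, 46 carried such a name, and 45 of these had a mean of at least 5 TPM, transcript abundance scaled for transcript length and library size, over 10 libraries, as did 9853 genes in all. The decapping cofactor Dcp1b, with a mean of 3.08 TPM, fell under that minimum, and Zfp36l1 was not analysed here.

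N2A cells were plated on membranes with 1 µm pores, through which neurites grow, and RNA was taken separately from the neurites and from the somas (cell bodies). Each of 5 plasmids was introduced by transient transfection under a CMV promoter, and each gave 1 neurite and 1 soma library. CTG480 (labelled DT480) carries a DMPK fragment with 480 CTG repeats, and its control CTG0 (labelled DMPKS) carries the fragment with 0 repeats. The Kif1b-alpha and Kif1c plasmids express EGFP-fused kinesin tails without a motor domain, and the Kif1b-beta tail served as their control. The tails act as dominant negatives, and several wells were pooled for each library.

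In all groups the cells had 24 h in serum and 48 h of neurite growth without serum. No transfection was repeated, so the 5 transfections, which differ in plasmid, were the only repeats of a fraction, and p-values measure the spread between them. Values of the 5 transfections are listed below in the order CTG480, CTG0, Kif1b-alpha tail, Kif1c tail and Kif1b-beta tail.

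Most mRNAs are destroyed in a fixed sequence. Deadenylases of the CCR4-NOT and PAN2-PAN3 complexes shorten the poly(A) tail, after which the message is either decapped by DCP2 and digested from its 5′ end by XRN1, or digested from its 3′ end by the RNA exosome. Nonsense-mediated decay (NMD) removes messages with early stop codons through UPF and SMG proteins, and proteins of the ZFP36 family bind AU-rich elements and recruit the deadenylases. Decay proteins are found in neuronal RNA granules as well as in the cell body, and the values here are of the mRNAs that encode them, not of the proteins.

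The fractions were checked first. Of 6 nuclear-retained RNAs listed for this purpose, Meg3 fell under 5 TPM and 5 of the 5 tested were higher in soma, with a median log2 value of -0.83, and 8 of 9 mRNAs known from cell protrusions were higher in neurites, with a median of 0.64. Of 14 neuroblastoma and sympathetic neuron markers, 9 reached 5 TPM, while Gata3 and Th did not and Dbh, Nefl and Nefm were not analysed here. These markers summed to between 1000 and 1065 TPM in neurites and between 1161 and 1245 TPM in soma. Of the markers listed for other cell types, Mbp (glia), Cx3cr1 (immune cells), and Col1a1 and Pecam1 (fibroblasts and endothelium) stayed under 5 TPM. The rest of those lists, with all 3 muscle markers, were not analysed here, so this check covers few markers. Non-coding transcripts made up 24.2% to 27.7% of the summed values in neurites and 33.0% to 37.9% in soma, a difference that runs with the fractions and whose part in the results below was not tested. In bulk libraries such as these, a different share of cells and a different amount of RNA per cell cannot be told apart.

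The comparison of neurites with soma asks which decay factor mRNAs were relatively more abundant in the outgrowths. Of the 10 RNA exosome subunit mRNAs, 7 were higher in neurites, led by Exosc6 at 1.5-fold, and 1, Exosc1, was higher in soma. Of all 45 members, 11 were higher in neurites, 7 were higher in soma and 27 did not pass the test (limma with the transfection as a block, adjusted p under 0.05 over 9853 genes). The background over the 9853 genes was 19.4% toward neurites and 18.6% toward soma, so the counts over all members were near the background. Scaled to a sum of 1000000 TPM per library, the counts were 40 and 0 for the members, beside 71.6% and 2.09% of all genes. Under that scaling 9 of the 10 exosome subunits were higher in neurites, so their distance from the background was smaller than with the deposited values. The median log2 neurite/soma value was 0.05 for the members, 0.26 for the exosome subunits and 0.01 for all genes. Without any overlap between neurite and soma libraries there were 12 members of 45, beside 28.0% of all genes.

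**Figure D1:**
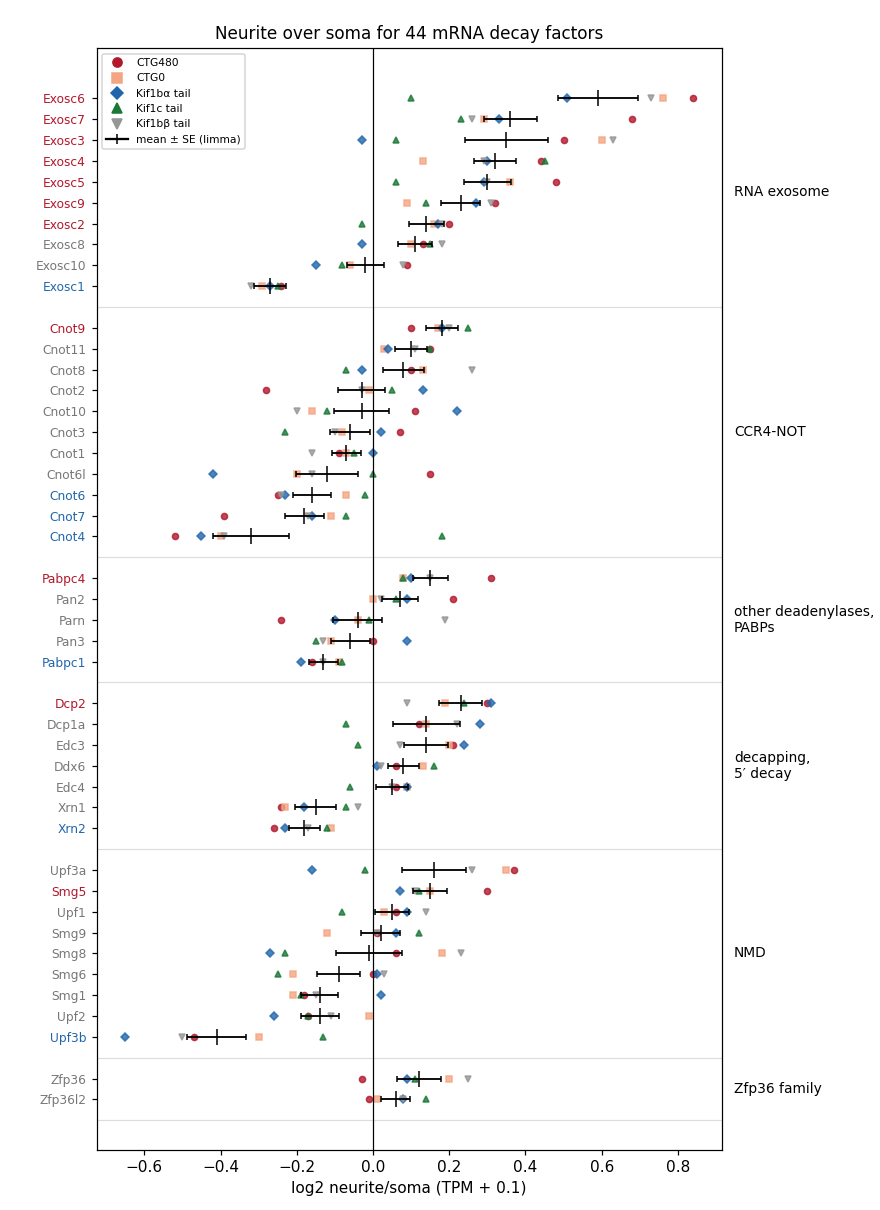
Log2 of neurite over soma TPM (0.1 TPM added) for 44 of the 45 decay factors, grouped by role; symbols are the 5 transfections, black bars the limma mean ± SE, and gene names are red where higher in neurites, blue where higher in soma and grey where the test was not passed. Exosome subunits reach 0.59 at the top, and the blue names, other than Upf3b, turn to values between 0.02 and 0.20 if every library is scaled to a sum of 1000000 TPM.

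Exosc6 (chr8:111056339-111057664, GRCm38) encodes a subunit of the RNase PH-like ring through which the exosome threads RNA. It had 43.2, 43.2, 37.4, 34.3 and 40.4 TPM in neurites, against 24.1, 25.4, 26.2, 32.0 and 24.4 TPM in soma. All neurite libraries lay above all soma libraries, and the log2 difference was 0.59 ± 0.104 (SE, n = 5 pairs, adjusted p = 0.00468). The Kif1c tail pair was the closest, with a log2 ratio of 0.10.

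Exosc7, another ring subunit (chr9:123113231-123136129), had 44.9, 46.3, 41.6, 40.5 and 42.1 TPM in neurites, against 27.9, 37.9, 33.0, 34.6 and 35.1 TPM in soma. The fractions did not overlap, and the difference was 0.36 ± 0.070 (adjusted p = 0.00703). The ring subunit Exosc4 (chr15:76327397-76330670) had 47.3, 42.6, 46.3, 50.0 and 50.2 TPM in neurites, against 34.7, 38.8, 37.5, 36.6 and 40.9 TPM in soma, again without overlap. Its difference was 0.32 ± 0.055 (adjusted p = 0.00398).

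Exosc5 (chr7:25659153-25668032), also of the ring, had 37.1, 38.8, 36.8, 33.5 and 34.4 TPM in neurites and 26.6, 30.2, 30.0, 32.1 and 28.0 TPM in soma. Neurites were higher in every pair, by 0.30 ± 0.062 (adjusted p = 0.00870), and only slightly so with the Kif1c tail (0.06). Counting protein-coding transcripts alone, Exosc5 was at 0.21 with an adjusted p of 0.0731.

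The ring subunit Exosc9 (chr3:36552606-36565727) had 25.8, 25.4, 24.9, 29.9 and 26.2 TPM in neurites, against 20.6, 23.9, 20.6, 27.1 and 21.1 TPM in soma. The ranges overlapped only through the Kif1c tail soma value, and neurites were higher in all 5 pairs (0.23 ± 0.052, adjusted p = 0.0128). Exosc8, the remaining ring subunit, did not pass the test at 0.11 ± 0.044 (adjusted p = 0.0958).

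The cap of the exosome, which guides RNA into the ring, was split. Exosc3 (chr4:45316613-45320616) had 30.8, 34.9, 28.4, 29.7 and 34.4 TPM in neurites, against 21.7, 23, 29.0, 28.4 and 22.2 TPM in soma. Its log2 ratios were 0.50, 0.60 and 0.63 in CTG480, CTG0 and Kif1b-beta tail cells but -0.03 and 0.06 in Kif1b-alpha and Kif1c tail cells. The mean of 0.35 ± 0.108 passed the test (adjusted p = 0.0358) but not without CTG480 (0.31, adjusted p = 0.106), CTG0 (0.29, adjusted p = 0.107) or the Kif1b-beta tail (0.28, adjusted p = 0.105).

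Exosc2, the most abundant exosome mRNA of the cap, averaged 72.4 ± 1.89 TPM in neurites and 65.9 ± 3.17 TPM in soma (SD, n = 5). Its difference of 0.14 ± 0.045 was close to the threshold (adjusted p = 0.0477) and kept its call only where the Kif1c tail was left out of the 5 single omissions. The other omissions gave 0.12 to 0.13 with adjusted p of 0.103 to 0.139.

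Exosc1 (chr19:41922978-41933423), the third cap subunit, went the other way. It had 18.3, 19.2, 20.8, 22.1 and 21.1 TPM in neurites, against 21.6, 23.5, 25.1, 26.4 and 26.3 TPM in soma. The ranges overlapped slightly, but the 5 log2 ratios fell within -0.32 and -0.24 and their mean of -0.27 ± 0.041 had the lowest adjusted p of any member (0.00256). Its most abundant transcript alone, NM_025644, was at -0.18 and did not pass the test (adjusted p = 0.162). Exosc10, the nuclear-enriched exonuclease of the complex, was at -0.02 ± 0.048 (adjusted p = 0.707).

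The exosome count changed with the transfections included, and so did the count over all genes. The exosome count was 7 without the Kif1b-alpha or the Kif1c tail and 5 without CTG480, CTG0 or the Kif1b-beta tail. The 5 subunits Exosc4, Exosc5, Exosc6, Exosc7 and Exosc9 passed in each of the 5 omissions. With the 3 tail transfections alone the exosome count was 2, and with CTG480 and CTG0 alone it was 4. Both settings were chosen after the data were seen. Over all 9853 genes the count toward neurites was 1911 in the full fit and between 1281 and 1707 in the 5 omissions. It was 488 with the 3 tail transfections alone and 755 with CTG480 and CTG0 alone.

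**Figure D2:**
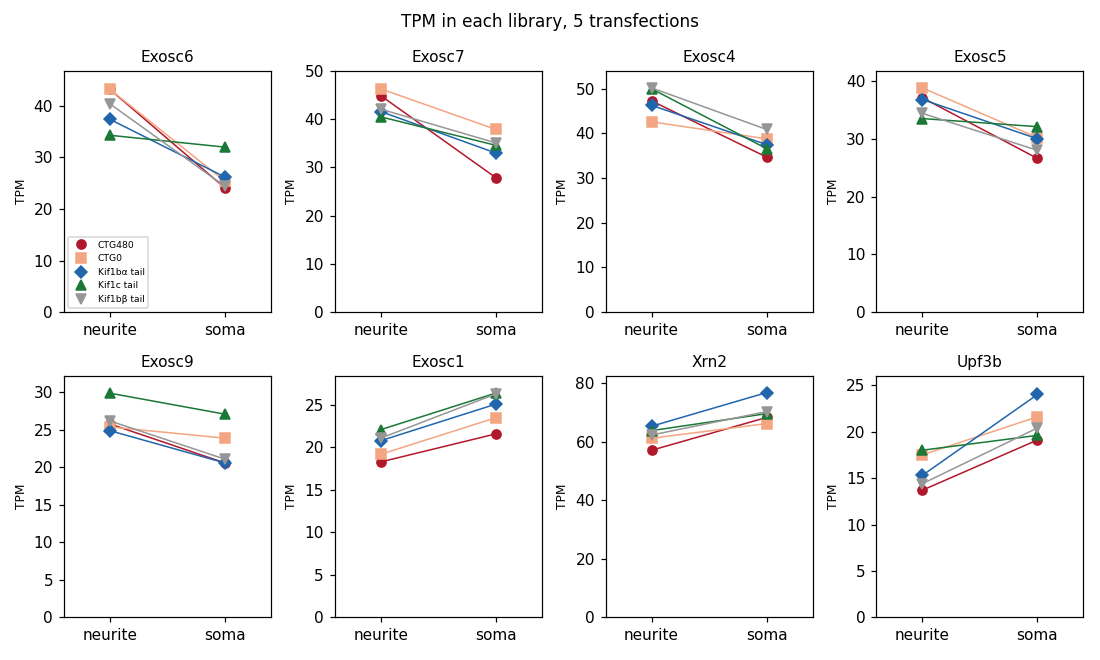
TPM of the 8 members that passed the neurite against soma test in every omission of 1 transfection, with neurites left and soma right and a line joining the 2 libraries of each transfection; axes start at 0. Exosc6, Exosc7, Exosc4, Exosc5 and Exosc9 are higher in neurites in every pair, and Exosc1, Xrn2 and Upf3b are lower in every pair, although Exosc1 and Xrn2 turn to 0.06 and 0.15 if every library is scaled to a sum of 1000000 TPM.

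Members higher in soma came from several complexes. As background, CNOT6 and CNOT7 are catalytic deadenylases of CCR4-NOT, and CNOT4 is a ubiquitin ligase associated with it. These directions rest on the deposited normalization: with every library scaled to a sum of 1000000 TPM, Cnot4, Cnot6, Cnot7, Pabpc1, Xrn2 and Exosc1 moved to 0.02, 0.17, 0.15, 0.20, 0.15 and 0.06, and Upf3b to -0.08. That scaling placed the median of all genes at 0.35, so all 7 remained below the median gene.

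Upf3b (chrX:37091678-37110471), which links UPF proteins to exon junction complexes in NMD, had the lowest value of all members. It had 13.7, 17.5, 15.3, 18.0 and 14.4 TPM in neurites, against 19.1, 21.6, 24.0, 19.6 and 20.4 TPM in soma. The fractions did not overlap (-0.41 ± 0.077, adjusted p = 0.00609), and the ratio was weakest in Kif1c tail cells (-0.13) and strongest in Kif1b-alpha tail cells (-0.65). Its paralog Upf3a averaged 54.8 ± 5.22 TPM in neurites and 49.1 ± 4.55 TPM in soma and did not pass the test (0.16 ± 0.085, adjusted p = 0.171).

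Cnot4 (chr6:35022065-35133754) had 15.8, 18.3, 16.6, 21.5 and 17.4 TPM in neurites, against 22.8, 24.1, 22.8, 19.0 and 22.8 TPM in soma. It was lower in neurites in 4 pairs, with log2 ratios of -0.52 to -0.39, and higher in the Kif1c tail pair at 0.18. The mean of -0.32 ± 0.10 (adjusted p = 0.0403) kept its call only without the Kif1c tail. Without CTG480, CTG0, the Kif1b-alpha tail or the Kif1b-beta tail, it was -0.26, -0.30, -0.28 and -0.30, with adjusted p of 0.102 to 0.121.

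Cnot7 (chr8:40492538-40515847) had 62.0, 70.3, 74.2, 76.7 and 66.1 TPM in neurites, against 81.3, 76.0, 83.0, 80.7 and 74.6 TPM in soma (-0.18 ± 0.052, adjusted p = 0.0288). Cnot6 (chr11:49671497-49713401) had 68.0, 74.3, 69.3, 77.8 and 65.8 TPM in neurites, against 80.6, 78.0, 81.3, 78.6 and 77.9 TPM in soma (-0.16 ± 0.049, adjusted p = 0.0350). Both deadenylases were lower in neurites in 5 of 5 pairs. Each lost its call in 4 of the 5 omissions, all but that of the Kif1c tail, at values between -0.20 and -0.13 and adjusted p of 0.0503 to 0.112.

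The paralogous deadenylases did not pass the test. Cnot8, the paralog of Cnot7, was at 0.08 ± 0.055 (adjusted p = 0.276), and Cnot6l, that of Cnot6, at -0.12 ± 0.082 (adjusted p = 0.257). Whether the paralogs differed from each other was not tested.

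Cnot9, which encodes the subunit that contacts RNA-binding proteins and the microRNA machinery, was the one CCR4-NOT mRNA higher in neurites. It had 27.9, 28.1, 28.8, 31.5 and 28.2 TPM in neurites, against 26.1, 25, 25.5, 26.5 and 24.6 TPM in soma. The fractions did not overlap (0.18 ± 0.042, adjusted p = 0.0151), and without the Kif1b-beta tail the value was 0.17 with an adjusted p of 0.0532. The scaffold Cnot1 and the subunits Cnot2, Cnot3, Cnot10 and Cnot11 lay between -0.07 and 0.10 and did not pass the test.

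Among the other deadenylases and poly(A)-binding proteins, Pabpc1 and Pabpc4 were called in opposite directions. Pabpc1, the main cytoplasmic poly(A)-binding protein and the most abundant member, had 726, 763, 771, 787 and 753 TPM in neurites, against 813, 812, 879, 831 and 827 TPM in soma. The fractions did not overlap, and the difference was -0.13 ± 0.037 (adjusted p = 0.0266). Pabpc4, a related protein, averaged 56.5 ± 2.38 TPM in neurites and 51.0 ± 1.28 TPM in soma, also without overlap (0.15 ± 0.046, adjusted p = 0.0419).

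Both of these calls were near the threshold. Pabpc1 kept its call only without the Kif1c tail, with adjusted p of 0.0541 to 0.0830 in the other 4 omissions, and Pabpc4 lost its call in all 5 (0.0567 to 0.121). The trimming enzymes Pan2 and Pan3 and the deadenylase Parn lay between -0.06 and 0.07 and did not pass.

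In the decapping and 5′ decay group, the mRNA of the decapping enzyme Dcp2 was higher in neurites. It had 14.9, 14.1, 15.1, 15.7 and 12.5 TPM there, against 12, 12.3, 12.1, 13.2 and 11.7 TPM in soma. Neurites were higher in 5 of 5 pairs (0.23 ± 0.056, adjusted p = 0.0166), and without CTG480 the value was 0.21 with an adjusted p of 0.0547. Xrn2 (chr2:147012755-147078000), the nuclear 5′ to 3′ exonuclease, had 57.1, 61.2, 65.3, 63.8 and 62.3 TPM in neurites, against 68.3, 66.2, 76.8, 69.6 and 70.3 TPM in soma.

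Xrn2 libraries did not overlap (-0.18 ± 0.040, adjusted p = 0.0110). Its cytoplasmic counterpart Xrn1 also had no overlap, at 14.9 ± 0.273 TPM in neurites and 16.6 ± 1.04 TPM in soma, but just missed the threshold (-0.15 ± 0.054, adjusted p = 0.0611). The decapping cofactors Dcp1a, Edc3 and Edc4 and the P-body helicase Ddx6 had values of 0.05 to 0.14 and did not pass.

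Of the remaining NMD genes, Smg5, whose protein binds phosphorylated UPF1, was higher in neurites. It averaged 61.2 ± 2.30 TPM in neurites and 55.1 ± 2.62 TPM in soma, without overlap (0.15 ± 0.045, adjusted p = 0.0314). It kept its call only without the Kif1b-alpha tail, and the other omissions gave adjusted p of 0.0534 to 0.0953. The kinase Smg1 and the adaptor Upf2 both had -0.14, with adjusted p of 0.0539 and 0.0548.

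The NMD helicase Upf1, the endonuclease Smg6, and the SMG1 regulators Smg8 and Smg9 lay between -0.09 and 0.05 and did not pass. Zfp36 had 12.8, 17.1, 13.8, 16.7 and 15.6 TPM in neurites, against 13.1, 14.9, 12.9, 15.5 and 13.1 TPM in soma (0.12 ± 0.058, adjusted p = 0.128). Zfp36l2, the mouse gene of the Tis11d protein that the study tested for kinesin association, had 83.5, 84.7, 88.4, 87.6 and 86.5 TPM in neurites, against 84.0, 84.4, 83.9, 79.6 and 81.5 TPM in soma. Its fractions overlapped and differed by 0.06 ± 0.038 (adjusted p = 0.257).

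A further list of 74 names of decay factors outside those above, in which Ccrn4l and Noct stand for the same gene, was compared in the same fit. Of the 67 tested, 11 passed the test toward neurites and another 11 toward soma, with a median of 0.01. The share called in either direction was 32.8%, below the 38.0% over all genes. The highest value was that of Lsm4 (122 ± 9.43 TPM in neurites, 94.7 ± 11.4 TPM in soma, 0.37), a subunit of the Lsm rings that bind 3′ ends of RNA. Wdr61, a subunit of the exosome's cytoplasmic cofactor, the Ski complex, came next with 39.7 ± 2.13 TPM in neurites and 31.4 ± 2.67 TPM in soma (0.34 ± 0.057, adjusted p = 0.00378). It was followed by Lsm7 (171 ± 6.79 TPM in neurites, 141 ± 16.7 TPM in soma, 0.29). The other Lsm ring subunits on the list, Lsm1, Lsm2, Lsm3, Lsm5 and Lsm6, had values of -0.01 to 0.16 and did not pass the test (adjusted p of 0.0988 to 0.945). The ribosome rescue factor Pelo was at 0.27 ± 0.065 (adjusted p = 0.0145).

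Those lowest in neurites included Zcchc7, a subunit of the nuclear exosome's TRAMP cofactor, at 15.5 ± 1.36 TPM in neurites and 19.4 ± 1.43 TPM in soma (-0.32 ± 0.069, adjusted p = 0.00971). The uridylyl transferase Zcchc11 was at -0.29 ± 0.054 (adjusted p = 0.00567). Tnrc6c and Tnrc6a, the GW182 scaffolds of microRNA silencing, were both at -0.26, with adjusted p of 0.00281 and 0.00386.

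Most exosome subunits have short mRNAs. By the GENCODE annotation of each gene's most abundant transcript, the median length was 1313 nt for the 10 exosome subunits (1018 to 2790 nt, the longest being Exosc10), 3019 nt for all 45 members and 2867 nt for the 9752 genes with an annotated transcript. Over all genes, those higher in neurites had a median length of 2244 nt and those higher in soma 3627 nt, and median GC contents of 54.2% and 47.5%. The 11 members higher in neurites had medians of 1686 nt and 51.7%, and the 7 higher in soma 2615 nt and 44.9%. Exosc1, at 1018 nt the shortest member, was higher in soma, and Dcp2, at 8616 nt, was higher in neurites. The part of length and GC content in the results was not tested.

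**Figure D3:**
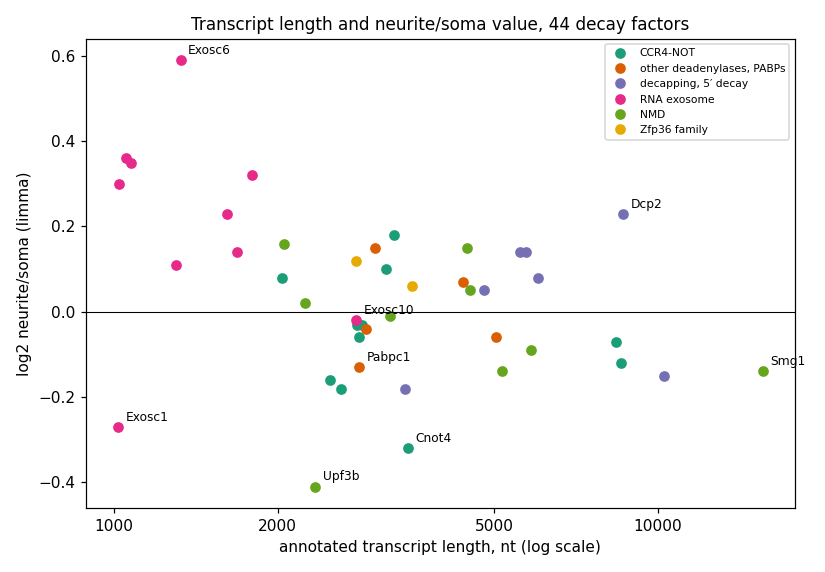
Annotated length of the most abundant transcript (log axis, nt) against the log2 neurite/soma value for 44 of the 45 decay factors, coloured by role. Exosome subunits lie between 1018 and 2790 nt, with Exosc1 (-0.27) and Exosc10 (-0.02) below 0, and the longest member, Smg1, at 15557 nt, is at -0.14; genes share libraries, so this is a description.

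MBNL proteins, which the study followed, bind short motifs with GC between pyrimidines. Those searched were CGCC and CGCT, together with the versions that start with a T, which are TGCC and TGCT. Counted on the transcript strand with overlaps, in 3′ UTRs of at least 100 nt, the motifs occurred at a median of 12.8 per kb in the members and 12.7 per kb over all genes. The medians were 11.3 per kb for members higher in neurites and 8.47 per kb for members higher in soma, where all genes of those classes had 14.4 and 11.6 per kb.

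For 10 members, 2 or more transcripts had a mean of at least 5 TPM, and in 3 of these (Cnot6, Ddx6 and Pabpc4) the mean log2 ratios of the transcripts were 0.5 or more apart. Reads were shared out between transcripts by estimation, and how that sharing acts on the values was not tested.

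The coding stretch that differs between the 2 transcripts of Cnot6 (chromosome 11, minus strand) is shown because it is where their coding sequences part; they also differ in 3′ UTR length. It was read from GENCODE M21 transcripts on GRCm38, with the stretch that differs in capitals and shared coding sequence in lower case. The 15 nt at chr11:49685248-49685262 are present in NM_001290741 and absent from NM_212484.
Cnot6 exon end of NM_001290741: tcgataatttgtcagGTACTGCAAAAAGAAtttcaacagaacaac

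The Cnot6 transcript NM_212484, with a 3′ UTR of 483 nt, had 29.2, 32.0, 38.2, 37.2 and 40.5 TPM in neurites, against 47.2, 51.0, 47.7, 50.1 and 47.6 TPM in soma (-0.47 ± 0.080, SE, adjusted p = 0.00913 over 11515 transcripts). NM_001290741, with 3693 nt, had 38.8, 42.3, 31.2, 40.6 and 25.3 TPM in neurites, against 33.4, 27.0, 33.6, 28.5 and 30.3 TPM in soma, and was not called (0.20 ± 0.140, adjusted p = 0.324). NM_212484 was lower in neurites in 5 of 5 pairs, and NM_001290741 was higher in 3 of 5. The 3′ UTR lengths are those of the matched GENCODE transcripts, which were not compared with the RefSeq sequences used for quantification.

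**Figure D4:**
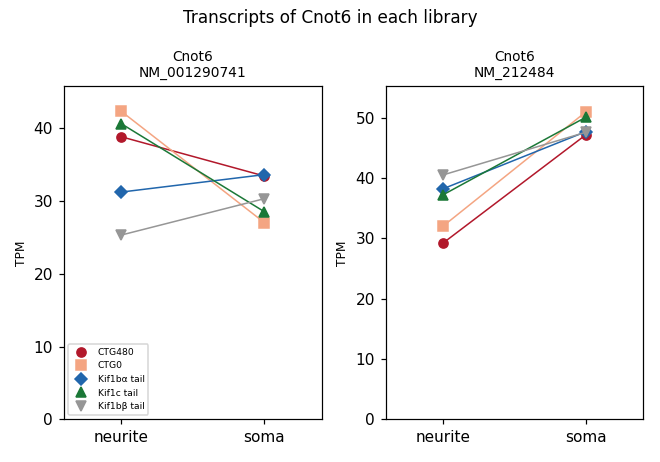
TPM of 2 Cnot6 transcripts in each library, neurites left and soma right, with a line for each transfection; axes start at 0. NM_212484 is lower in neurites in 5 of 5 pairs, at -0.47, and NM_001290741 varies in direction.

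The transcripts of Ddx6 and Pabpc4 gave less. NM_181324, NM_007841 and NM_001110826 of Ddx6 were at 0.20, -0.01 and -0.42, none of them called (adjusted p of 0.123, 0.972 and 0.273). NM_130881 of Pabpc4 was at 0.28 ± 0.084 (adjusted p = 0.0499), and NM_148917, which was listed at 0 in 1 neurite library, was not called (-1.48 ± 0.934, adjusted p = 0.279).

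The comparison of CTG480 with CTG0 asks whether expanded repeats, which sequester MBNL proteins, shifted the members between neurites and soma. The localization ratio is the log2 neurite/soma value of 1 transfection. With 1 library per group there is no replicate check on any difference between transfections, and none of these values has a test. A difference of 0.25 or more served as the limit.

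In CTG480 cells, 2 members had a ratio lower by 0.25 or more than in CTG0 cells and 4 had a higher one, where 13.2% of all genes were lower and 13.8% higher. The median difference was 0.01 for the members and -0.00 for all genes. The lowest were Cnot7 (ratio -0.39 in CTG480 and -0.11 in CTG0 cells), Cnot2 (-0.28 and -0.01), Zfp36 (-0.03 and 0.20) and Parn (-0.24 and -0.04), with differences of -0.28, -0.27, -0.23 and -0.20. Cnot2, a structural subunit of CCR4-NOT, had 46.4, 52.1, 54.4, 54.7 and 50.4 TPM in neurites, against 56.2, 52.4, 49.6, 52.8 and 51.4 TPM in soma. The CTG480 pair held both its lowest neurite and its highest soma value.

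The highest were Exosc7 (0.68 in CTG480 and 0.29 in CTG0 cells), Cnot6l (0.15 and -0.20), Exosc4 (0.44 and 0.13) and Cnot10 (0.11 and -0.16), with differences of 0.40, 0.35, 0.31 and 0.28. The Exosc7 difference lay in the somas, with 27.9 TPM in CTG480 and 37.9 TPM in CTG0 soma, while the neurites had 44.9 and 46.3 TPM. Cnot6l had 17.9, 18.0, 16.5, 18.3 and 17.8 TPM in neurites, against 16.1, 20.7, 22.2, 18.2 and 19.8 TPM in soma, so that CTG480 soma was the lowest library. Cnot10, which encodes a subunit bound to the amino-terminal end of CNOT1, had 21.6, 18.3, 19.1, 19.3 and 19.7 TPM in neurites, against 19.9, 20.5, 16.4, 21 and 22.7 TPM in soma.

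The comparisons of the Kif1b-alpha and Kif1c tails with the Kif1b-beta tail ask whether blocking these kinesins shifted the members. Both comparisons share the Kif1b-beta libraries, so any value that is unusual there enters both. In Kif1b-alpha tail cells 6 members were lower by 0.25 or more and 1 was higher, where 12.7% of all genes were lower and 13.8% higher. In Kif1c tail cells 7 were lower and 2 higher, where 14.9% of all genes were lower and 15.2% higher. With every library scaled to a sum of 1000000 TPM, the counts were 3 lower and 4 higher for Kif1b-alpha, where 8.42% of all genes were lower and 21.9% higher, and 3 lower and 8 higher for Kif1c, where 8.20% were lower and 27.7% higher. That scaling moved the median difference of all genes to 0.08 for Kif1b-alpha and 0.12 for Kif1c.

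Exosc3 was the lowest member in Kif1b-alpha tail cells, with a ratio of -0.03 against 0.63 in Kif1b-beta tail cells, a difference of -0.66. In Kif1c tail cells its ratio of 0.06 gave a difference of -0.56. Its soma values were 29.0 and 28.4 TPM in Kif1b-alpha and Kif1c tail cells and 22.2 TPM in Kif1b-beta tail cells, where CTG480 and CTG0 somas had 21.7 and 23 TPM.

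Smg8, a regulator of the SMG1 kinase, had 17.4, 20.6, 15.8, 16.4 and 17.8 TPM in neurites, against 16.7, 18.2, 19.1, 19.3 and 15.2 TPM in soma. Kif1b-alpha and Kif1c tail cells held both its lowest neurite and its highest soma values. The differences in ratio were -0.50 and -0.46. Smg8 kept a positive ratio in the other 3 transfections, at 0.06, 0.18 and 0.23 in CTG480, CTG0 and Kif1b-beta tail cells.

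Upf3a had ratios of -0.16, -0.02 and 0.26 in Kif1b-alpha, Kif1c and Kif1b-beta tail cells, so the differences were -0.41 and -0.28. Cnot8 had -0.03, -0.07 and 0.26 there, with differences of -0.29 and -0.33. Upf3a had 59.3, 58.6, 46.2, 55.0 and 55.1 TPM in neurites, against 45.9, 45.8, 51.6, 55.9 and 46.2 TPM in soma. Cnot8 had 58.6, 54.6, 56.4, 56.6 and 61.8 TPM in neurites, against 54.6, 49.8, 57.5, 59.3 and 51.5 TPM in soma. For both genes the 2 highest soma values were those of Kif1b-alpha and Kif1c tail cells.

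Parn (-0.10 in Kif1b-alpha and 0.19 in Kif1b-beta tail cells) and Cnot6l (-0.42 and -0.16) completed the Kif1b-alpha list at -0.29 and -0.27. Cnot10 was its one higher member at 0.42, with 16.4 TPM in Kif1b-alpha and 22.7 TPM in Kif1b-beta tail soma. Pan3 and Dcp2 (0.22 each) and Smg1 (0.18) came next, all under the limit. Pan3, the regulatory subunit of PAN2-PAN3, had 24.2, 23.1, 26.2, 24.6 and 24.0 TPM in neurites, against 24.2, 25, 24.5, 27.4 and 26.3 TPM in soma. Smg1 had 25.9, 25.4, 28.9, 25.3 and 25.4 TPM in neurites, against 29.3, 29.3, 28.5, 28.8 and 28.2 TPM in soma, and its Kif1b-alpha neurite value was the highest of the 5.

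Exosc6 was the lowest member in Kif1c tail cells, at a ratio of 0.10 against 0.73 in Kif1b-beta tail cells, a difference of -0.63. It had 34.3 TPM in Kif1c and 40.4 TPM in Kif1b-beta tail neurites, and 32.0 and 24.4 TPM in soma. In Kif1b-alpha tail cells the same gene differed by -0.22. Dcp1a, Upf3a and Smg6, at -0.29, -0.28 and -0.27, were just inside the limit in Kif1c tail cells, and Exosc5, at -0.23, was just outside it.

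The 2 members higher in Kif1c tail cells were Cnot4 and Upf3b, both higher in soma in the comparison of fractions. Cnot4 had ratios of 0.18 in Kif1c and -0.39 in Kif1b-beta tail cells (difference 0.56), and Upf3b had -0.13 and -0.50 (difference 0.38). Cnot6, at 0.23, and Exosc4 and Cnot6l, at 0.16, followed under the limit. Zfp36l2 differed by -0.01, -0.01 and 0.05 in the CTG480, Kif1b-alpha and Kif1c comparisons.

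**Figure D5:**
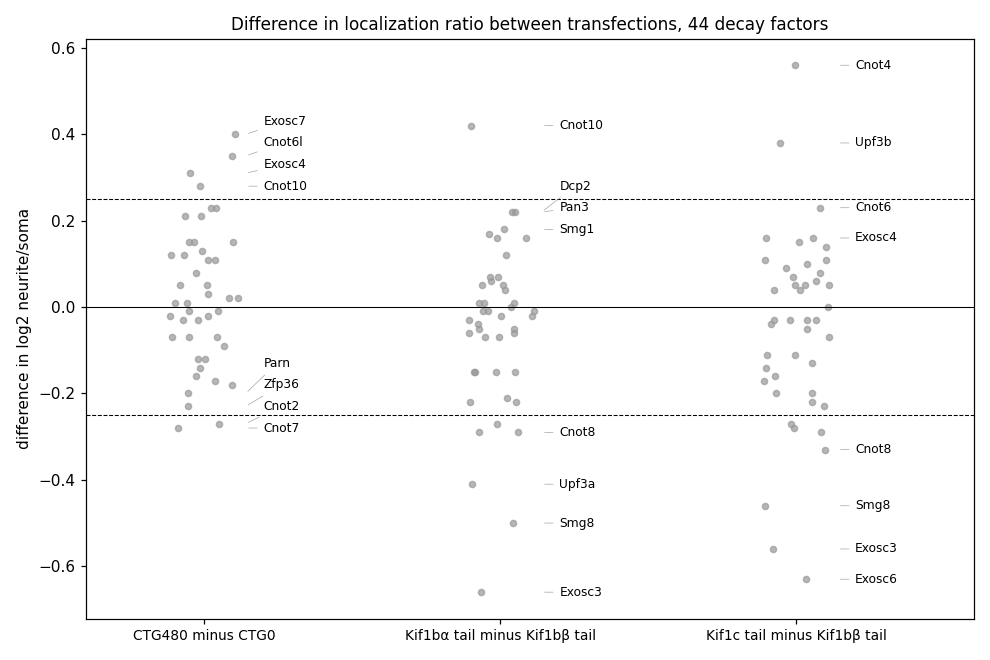
Difference in log2 neurite/soma between each perturbed transfection and its control for 44 of the 45 decay factors, with the 4 lowest and 4 highest named and dashed lines at 0.25 above and below 0; horizontal scatter within a column carries no value. Exosc3 reaches -0.66 with the Kif1b-alpha tail and Exosc6 -0.63 with the Kif1c tail, and the Kif1b-beta tail libraries are common to both of those columns.

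The 3 perturbations were also set against the 2 controls in 1 fit over the 5 ratios, in which different plasmids stand in for repeats. No gene of 9853 passed at an adjusted p under 0.05 (limma), with 512 at an unadjusted p under that value and a lowest adjusted p of 0.443. The members with the lowest adjusted p were Exosc3 (-0.43 ± 0.172) and Smg8 (-0.35 ± 0.127), both at 0.939, and Cnot10 (0.26 ± 0.124), at 0.961. For Smg8, the 3 perturbed ratios were 0.06, -0.27 and -0.23, against 0.18 and 0.23 in the controls, without overlap and without a call. Other members, among them Exosc3, Cnot10, Zfp36 and Dcp2, were also without overlap, and the share of all genes without overlap was not counted.

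Levels of the members were compared between transfections within each fraction. No member differed from its control by 0.25 or more in the same direction in both fractions, in any of the 3 comparisons. Over all genes 1.16% were lower and 1.54% higher in CTG480 than in CTG0 cells. The shares were 1.50% lower and 1.00% higher in Kif1b-alpha than in Kif1b-beta tail cells, and 1.73% lower and 0.995% higher in Kif1c than in Kif1b-beta tail cells.

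The lowest level in CTG480 relative to CTG0 cells was that of Zfp36, at -0.30 on the log2 scale over both fractions, with 12.8 and 17.1 TPM in CTG480 and CTG0 neurites and 13.1 and 14.9 TPM in their somas. Parn and Upf3b were both at -0.26. Parn had 18.4, 23.5, 21.5, 21.7 and 24.1 TPM in neurites, against 21.7, 24.2, 23.1, 21.9 and 21.2 TPM in soma, with CTG480 the lowest neurite value. The highest were Cnot3 (0.16), Cnot8 (0.12), and Cnot10 and Smg9 (0.10 each). Cnot3, which forms the NOT module with CNOT2, had 42.4, 36.1, 38.9, 38.9 and 40.3 TPM in neurites, against 40.5, 38.2, 38.4, 45.6 and 43.2 TPM in soma. Smg9 had 18.6, 16.6, 19.0, 19.9 and 19.4 TPM in neurites, against 18.5, 18.0, 18.2, 18.3 and 19.2 TPM in soma, and the CTG0 values were the lowest in each fraction.

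In Kif1b-alpha relative to Kif1b-beta tail cells, Cnot10 (-0.26), Cnot11 (-0.24) and Edc4 (-0.13) were at the low end with Exosc8 (-0.13), and Upf2 (0.18) at the high end, followed by Cnot7, Dcp2 and Upf3b (0.16 each). Cnot11, whose protein pairs with CNOT10, had 33.7, 31.4, 29.0, 31.5 and 35.2 TPM in neurites, against 30.4, 30.7, 28.2, 28.4 and 32.6 TPM in soma. It passed the limit in neurites, at -0.28, but not in soma, at -0.21. Edc4, the scaffold of the decapping complex, had 30.6, 32.0, 28.4, 27.1 and 30.6 TPM in neurites, against 29.4, 29.9, 26.7, 28.2 and 29.5 TPM in soma, and the ring subunit Exosc8 had 54.1, 51.4, 44.7, 52.0 and 52.7 TPM in neurites, against 49.5, 47.9, 45.7, 46.8 and 46.4 TPM in soma.

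In Kif1c relative to Kif1b-beta tail cells, the highest members were Exosc9 (0.27), Upf2 (0.25) and Dcp2 (0.25), and the lowest Cnot11 (-0.18), Smg6 (-0.13) and Edc4 (-0.12). Upf2 had 21.2, 23, 22.1, 24.1 and 20.5 TPM in neurites, against 23.9, 23.1, 26.4, 27.0 and 22.2 TPM in soma, and Kif1c over Kif1b-beta was 0.23 in neurites and 0.28 in soma. Smg6 had 27.7, 25, 27.7, 24.4 and 29.3 TPM in neurites, against 27.7, 29.0, 27.6, 29.0 and 28.7 TPM in soma, with Kif1c the lowest neurite value. With each library centred on its median, 1 member passed the limit in both fractions in this comparison, against 0 as deposited. The share of all genes past the limit with that centring was not counted.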

How the data were processed

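RNA of neurites and somas from 5 transfections of N2A cells was rRNA-depleted and sequenced, with 1 library for each transfection and fraction (10 libraries). The authors quantified reads with kallisto 0.43.0 on mm10 RefSeq transcripts after bcl2fastq 2.20, and deposited TPM normalized between libraries by cyclic loess, a linear signal with no read counts, so the depth is unknown. Columns of the authors' own comparisons were not used.

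Transcript values were summed by gene name, and genes with a mean of at least 5 TPM were kept. Fractions were compared on log2(TPM + 0.1) with limma 3.58.1 in R 4.3.3, with the transfection as a block, a trended prior and Benjamini-Hochberg adjustment at 0.05; the added 0.1 TPM shrinks changes of low genes slightly. Libraries of one transfection come from the same cells, which pairs them. Their deviations from the fraction means correlated at -0.0252 to 0.0534, and those of other pairs at -0.123 to 0.0983. Without the block, 18 of 18 called members kept their calls. Transfections, at 1 library each, were compared by differences without a test. Lengths, motifs and sequences came from GENCODE M21 and gene positions from RefSeq, both on GRCm38 (mm10).

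One member is counted in every total but not reported here on its own, in text or figures. The members and lists were chosen with earlier results of these data known. Values in every library are given for the members with the largest differences in each comparison (up to 8 each way between fractions, 4 in localization ratio, 3 in level) and for the Zfp36 family; transcripts are given where they differed by 0.5 or more. Other settings tried were an added 1 TPM, other minimum values, no trend, scaling to a sum of 1000000 TPM, centring on the median, coding transcripts only, single transcripts, a limit of 0.5 and leaving out each transfection. Python 3.11.15 and pandas 2.3.3 were used for tables. The fits were run on simulated data only to check the code, with independent noise and no differences in level between transfections. No result here rests on that run.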

Additional observations from a re-analysis of the deposited data

Results flagged for a closer look

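In 5 of the 45 members, 1 transfection had a localization ratio far from the other 4 (Dixon's test), where 4.90% of all genes had one and chance alone marks about 1 group in 20. With the Kif1c tail, Cnot4 had a ratio of 0.18, where the others ran from -0.52 to -0.39. The same tail gave -0.06 for Edc4 (others 0.05 to 0.09) and -0.03 for Exosc2 (others 0.16 to 0.20). Exosc7 had 0.68 in CTG480 cells (others 0.23 to 0.33), and Smg1 had 0.02 in Kif1b-alpha tail cells (others -0.21 to -0.15).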

How the results depend on the processing

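Of the 18 members called between fractions, 18 kept their sign when any 1 transfection was left out and 8 also kept their call. The count higher in neurites, 11, ranged over these omissions between 6 and 11. The count higher in soma, 7, ranged between 3 and 7, and the exosome count of 7 between 5 and 7. Over all 9853 genes, 1911 higher in neurites and 1835 higher in soma became 1281 to 1707 and 1357 to 1646. With the tail transfections alone the 3 counts were 2, 1 and 2, where all genes gave 488 toward neurites and 696 toward soma. With CTG480 and CTG0 alone they were 5, 2 and 4, where all genes gave 755 and 933. Both settings were chosen after the data were seen and test fewer samples. Scaling to a sum of 1000000 TPM gave 40 members higher in neurites and 0 in soma, where all genes gave 7057 and 206, and reversed Cnot4 (0.02), Cnot6 (0.17), Cnot7 (0.15), Pabpc1 (0.20), Xrn2 (0.15) and Exosc1 (0.06). Single transcripts gave 4 exosome subunits higher in neurites, where 1594 of all 11515 transcripts were higher in neurites and 1585 in soma. The calls of Cnot4, Cnot7, Exosc1, Exosc2, Exosc3 and Exosc5 were lost in that fit (adjusted p of 0.0648 to 0.194, limma). Without the transfection as a replicate block, 18 of 18 calls remained, with 11 members higher in neurites and 9 in soma. All genes rose as well, to 2103 higher in neurites and 1965 in soma.

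A limit of 0.5 in place of 0.25 left 0 members lower and 0 higher for CTG480. It left 2 lower and 0 higher for Kif1b-alpha, and 2 lower and 1 higher for Kif1c. The share of all genes past the limit of 0.5 was not counted, so these counts have no background beside them. Scaling to a sum of 1000000 TPM gave 3 lower and 4 higher for Kif1b-alpha and 3 lower and 8 higher for Kif1c. The level comparison of Kif1c with Kif1b-beta gave 1 member with libraries centred on the median, a setting for which the share of all genes was not counted. No setting called a member between perturbed and control cells, with 0 calls also in each omission of 1 transfection. The cause of these changes was not tested, and 1 library per group and unknown depth limit every comparison of transfections.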
